A study of Mus musculus with 8 samples.

Results

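The enzymes described here make serine and feed its side-chain carbon into folate. They are 9 genes, all found by symbol among the 24413 genes of the count files, and all 9 were among the 9904 genes that passed the filter on low counts. Phgdh, Psat1 and Psph form the serine synthesis group. Shmt2, Mthfd2, Mthfd1l and Aldh1l2 form the mitochondrial folate group, and Shmt1 and Mthfd1 the cytosolic folate group. The RNA came from plasmablasts, the antibody-secreting cells that B cells become after activation. Splenic B220+ B cells of C57BL/6J mice were grown for 4 days with 25 µg/ml of LPS, a bacterial cell wall component that activates B cells, and the CD22-CD138+ cells were sorted. The 4 knockout libraries are from Jagn1fl/fl Mb1Cre+ mice, which lose Jagn1, a gene for a membrane protein of the endoplasmic reticulum, in the B cell lineage. The 4 control libraries are from Jagn1fl/fl mice, which share the floxed alleles but have no Cre listed. Mb1-Cre is expressed from the B cell gene Cd79a, so effects of the Cre allele and of Jagn1 loss cannot be told apart. The design text gives 4 mice for each genotype.

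Serine is built from a glycolytic intermediate in successive steps catalysed by PHGDH, PSAT1 and PSPH. SHMT enzymes then split serine into glycine and a carbon unit carried by folate. In mitochondria SHMT2, MTHFD2 and MTHFD1L turn that unit into formate, which leaves for the cytosol, while ALDH1L2 releases it as carbon dioxide and yields NADPH. In the cytosol MTHFD1 takes up the formate for purine and thymidylate synthesis, and SHMT1 can run the serine reaction there in either direction. Dividing lymphocytes depend on this route for nucleotides, and several of its genes are known targets of the transcription factor ATF4.

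The libraries held 5882912 to 10066661 counts. Jagn1 gave 19, 35, 16 and 99 counts in control replicates 1 to 4 and 2, 1, 1 and 1 in knockout replicates 1 to 4, so each library matched its label, although which exons are floxed is not stated in the labels and a 3′ tag reads only the end of a transcript. Control replicates 1 and 4 lay farthest from their group mean, with root mean square deviations (log2 CPM) of 0.594 and 0.581; those of the other 6 libraries were 0.324 to 0.432. All 7 plasmablast markers found in the files were detected, with summed levels of 26584 to 33722 CPM (counts scaled to a library total of 1e6 with TMM factors) in control libraries and 20884 to 26892 CPM in knockout libraries, most of it from Mzb1. By the test described in the next paragraph, 3 of the 7 were lower in the knockout, where 3.19% of all genes tested were lower, and the other 4 did not pass. The lower genes were Sdc1 (log2 fold change -1.07, edgeR adjusted p = 0.00635), which encodes the plasma cell surface proteoglycan CD138, Jchain (-0.89, 0.0122), the joining chain of secreted antibody, and Tnfrsf17 (-2.22, 0.0105), the receptor BCMA. In each of these 3 every knockout library lay below every control library. Without knockout replicate 2 only Sdc1 of the 7 passed, and Jchain alone lost its call without control replicate 3 or knockout replicate 1. These markers differed between the same groups as the enzymes described here, and their part in the enzyme changes was not tested. The 7 B cell markers summed to 438 to 609 CPM (control) and 470 to 583 CPM (knockout), and the 6 T cell markers to 10.9 to 20.5 CPM and 8.66 to 11.4 CPM. Myeloid, natural killer and erythroid lists each summed to at most 3.16 CPM in any library, with 4 of 7, 2 of 4 and 5 of 6 genes at 0 counts throughout.

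Of the 9 enzyme genes, 4 were higher and 1 was lower in the knockout. Phgdh and Psat1 of serine synthesis and Mthfd2 and Aldh1l2 of the mitochondrial folate group rose, with fitted folds of 1.79, 1.47, 1.91 and 6.67. Shmt1, the cytosolic serine hydroxymethyltransferase, fell to 0.620 of its control level. Psph, Shmt2, Mthfd1l and Mthfd1 did not pass the test. The test was edgeR's quasi-likelihood test with Benjamini-Hochberg adjustment over all 9904 genes and a threshold of 0.05, by which 5.74% of all genes tested were called, 2.54% higher and 3.19% lower. The median log2 fold change was 0.37 over the 9 members and -0.0096 over all genes tested. Because these are bulk libraries, fewer expressing cells and less RNA per cell cannot be told apart. When single libraries were left out, 5 of the 8 omissions gave 3 higher, with Psat1 lost. Shmt1 was lost in 6 of them, which gave 0 lower, and a replicate block also gave 0 lower. In those 6 omissions the calls over all genes fell as well, to between 270 and 410, against 568 with all libraries. Without control replicate 1 or 4 they numbered 820 and 892. Without control replicates 1 and 4 together, an omission chosen after seeing the data, 4 members were higher and 1 lower. In all 4 higher members every knockout library lay above every control library, as in 6.45% of all genes tested, and in Shmt1 every one lay below, as in 6.64% of all genes.

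**Figure D1:**
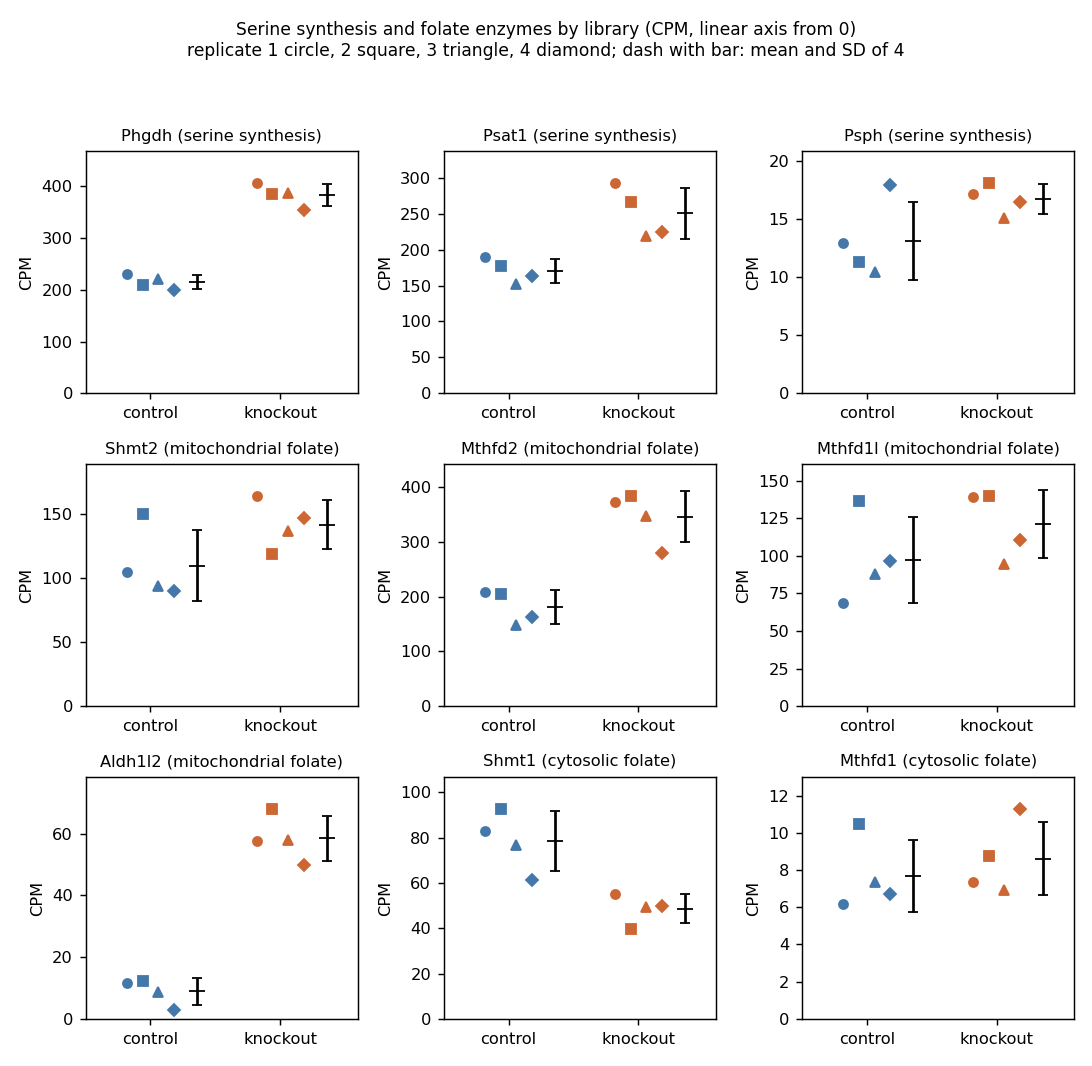
Level of each of the 9 enzyme genes in each library, in TMM-scaled CPM on linear axes from 0. Blue points are the 4 control and orange points the 4 knockout libraries, the marker shape gives the replicate number, and the dash with bar gives mean and SD. The groups do not overlap for Phgdh, Psat1, Mthfd2, Aldh1l2 and Shmt1, and they overlap for the other 4 genes.

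The promoters of the members that changed are shown so that the start regions of genes that changed in the same comparison can be compared by eye. RefSeq windows from 250 bases before to 50 bases after an annotated start (GRCm38.p6) were found for 8 of the 9 members, all but Aldh1l2, and Psat1 has a window for each of 2 starts. Each is written 5′ to 3′ on the gene's strand. Capitals mark CCAAT or its reverse complement ATTGG, the letters that the factor NF-Y is known to bind. The Phgdh window is chr3:98339920-98340219, the first Psat1 window chr19:15925010-15925309, the Mthfd2 window chr6:83317555-83317854 and the Shmt1 window chr11:60811216-60811515, all on the minus strand. The Psat1, Mthfd2 and Shmt1 windows lie inside the GENCODE gene spans given below, so their RefSeq starts are not the outer ends of those spans.
Phgdh: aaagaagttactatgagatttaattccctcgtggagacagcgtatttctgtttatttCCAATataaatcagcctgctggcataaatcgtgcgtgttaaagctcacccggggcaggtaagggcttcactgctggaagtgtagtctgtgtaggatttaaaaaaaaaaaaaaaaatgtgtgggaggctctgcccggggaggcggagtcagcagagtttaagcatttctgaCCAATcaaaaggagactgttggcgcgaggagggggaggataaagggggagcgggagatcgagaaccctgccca
Psat1: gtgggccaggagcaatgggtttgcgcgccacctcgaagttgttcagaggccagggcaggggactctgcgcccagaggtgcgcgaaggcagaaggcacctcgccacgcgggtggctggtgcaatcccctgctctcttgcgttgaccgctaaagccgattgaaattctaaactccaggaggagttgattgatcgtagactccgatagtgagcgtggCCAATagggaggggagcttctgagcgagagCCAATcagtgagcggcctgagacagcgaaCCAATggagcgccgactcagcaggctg
Mthfd2: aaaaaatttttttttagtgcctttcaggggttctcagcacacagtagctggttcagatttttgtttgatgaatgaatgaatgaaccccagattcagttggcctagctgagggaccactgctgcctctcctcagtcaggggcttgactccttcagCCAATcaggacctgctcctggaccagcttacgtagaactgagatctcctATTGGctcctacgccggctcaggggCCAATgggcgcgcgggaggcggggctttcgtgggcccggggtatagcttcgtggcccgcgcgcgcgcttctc
Shmt1: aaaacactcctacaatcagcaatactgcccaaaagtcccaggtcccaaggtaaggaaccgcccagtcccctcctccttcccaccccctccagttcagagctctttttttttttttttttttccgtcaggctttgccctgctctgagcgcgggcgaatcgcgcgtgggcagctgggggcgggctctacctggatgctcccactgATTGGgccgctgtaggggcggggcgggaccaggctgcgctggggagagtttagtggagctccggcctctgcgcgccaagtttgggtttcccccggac

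The letters CCAAT or ATTGG occur 2 times in the Phgdh window, 3 times in the first Psat1 window, 3 times in the Mthfd2 window and 1 time in the Shmt1 window. In Phgdh their first bases lie at -193 and -23 from the start, in Mthfd2 at -96, -47 and -22, in Psat1 at -36, -6 and 23, and in Shmt1 at -47. The second Psat1 window and those of Shmt2 and Mthfd1l hold none, that of Psph holds 2 and that of Mthfd1 holds 1. Of all 32851 windows of this length, 37.4% hold at least 1 and 11.7% hold at least 2, against 6 and 4 of the 8 members. The first are shares of windows, while a member was counted if any of its windows matched, and the 8 members have 9 windows. The letters TGATGNAA, which describe the composite element bound by ATF4 with C/EBP proteins (reverse complement TTNCATCA), occur in none of the 9 windows of the 8 members that have one and in 3.97% of all windows; Aldh1l2 was not searched. A match is only a match of letters, and a missing match says only that those letters are not in the window.

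Of the serine synthesis genes, Phgdh and Psat1 rose and Psph did not pass. Phgdh (ENSMUSG00000053398.11), the gene of the first and committed enzyme, lies on chromosome 3 from 98313170 to 98339990, minus strand, with 13 merged exon blocks in GENCODE M21 (GRCm38). It stood at 230, 208, 220 and 199 CPM in control replicates 1 to 4 and at 406, 384, 386 and 353 CPM in knockout replicates 1 to 4. Every knockout library lay above every control library, and the spread within each group was small, 214 ± 13.6 CPM against 382 ± 21.7 CPM (SD, n = 4 each). The log2 fold change was 0.84 ± 0.13 (SE, edgeR adjusted p = 0.000871), and it kept its call under all 17 alternatives, between 0.79 and 0.87. Phgdh has near-identical copies in the genome: 46.7% of the distinct 50-base stretches in the last 500 bases of its annotated transcripts also occur in transcripts of 16 other genes. Only 2 of those copies are rows of the count files and both have 0 counts. How multi-mapped reads were counted is not stated in the labels. It is therefore not known whether the Phgdh counts include reads from near-identical copies.

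Psat1 (ENSMUSG00000024640.9), the aminotransferase gene of the middle step, lies on chromosome 19 from 15904678 to 15947337, minus strand. It gave 190, 177, 152 and 163 CPM in control replicates 1 to 4 and 293, 266, 219 and 224 CPM in knockout replicates 1 to 4. The groups did not overlap, and knockout replicates 3 and 4 sat closest to the control range. The means were 171 ± 16.6 and 250.3 ± 35.1 CPM, and the log2 fold change was 0.55 ± 0.14 (edgeR adjusted p = 0.0348). This call was lost without control replicate 2 (adjusted p = 0.0829) or 3 (0.121) or knockout replicate 1 (0.132), 2 (0.137) or 3 (0.0557), with fitted values from 0.47 to 0.61. Only 1.26% of its 50-base stretches occur in another gene.

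Psph (ENSMUSG00000029446.14), the phosphatase gene that completes the route, lies on chromosome 5 from 129765558 to 129787449, minus strand. It had 12.9, 11.3, 10.4 and 17.9 CPM in control replicates 1 to 4 and 17.2, 18.1, 15.1 and 16.5 CPM in knockout replicates 1 to 4. Control replicate 4 lay within the knockout range and the other 3 control libraries lay below it. The log2 fold change of 0.34 ± 0.23 did not pass (edgeR adjusted p = 0.497). Without control replicate 4 it was 0.52 (0.184). It had 70 to 184 counts per library.

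The mitochondrial folate group held the largest fold of the 9 members. Aldh1l2 (ENSMUSG00000020256.14), the mitochondrial 10-formyltetrahydrofolate dehydrogenase gene, lies on chromosome 10 from 83487450 to 83534140, minus strand, with 23 merged exon blocks. It gave 82, 77, 62 and 31 counts in control replicates 1 to 4, or 11.5, 12.4, 8.63 and 3.02 CPM, and 429, 474, 443 and 416 counts in knockout replicates 1 to 4, or 57.6, 68.2, 58.1 and 50.0 CPM. The knockout libraries were close together, while control replicate 4 was well below the other 3 controls. The log2 fold change was 2.74 ± 0.32 (edgeR adjusted p = 0.000116), place 19 of 9904 when all genes tested are ordered by rise. It kept its call under all 17 alternatives, with the lowest value, 2.42, without control replicate 4. In its last exon block Aldh1l2 shares 1056 bases with D10Wsu102e on the opposite strand, and how strand was used in counting is not stated in the labels, so reads of the pair may not be separated. D10Wsu102e itself went from 75.2 ± 15.3 CPM to 62.9 ± 4.13 CPM (control, then knockout; log2 fold change -0.26 ± 0.17, edgeR adjusted p = 0.463).

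Mthfd2 (ENSMUSG00000005667.8), the dehydrogenase and cyclohydrolase gene of the mitochondrial branch, lies on chromosome 6 from 83305691 to 83325908, minus strand. It gave 208, 204, 147 and 164 CPM in control replicates 1 to 4 and 373, 384, 348 and 280 CPM in knockout replicates 1 to 4. All knockout libraries lay above all control libraries, with knockout replicate 4 the lowest of its group. The means were 181 ± 30.3 and 346 ± 46.6 CPM, and the log2 fold change of 0.94 ± 0.16 (edgeR adjusted p = 0.00190) kept its call under all 17 alternatives.

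Shmt2 and Mthfd1l, which stand before and after MTHFD2 in the mitochondrial route, did not pass. Shmt2 (ENSMUSG00000025403.5; chromosome 10 from 127517123 to 127522444, minus strand) stood at 105, 150, 94.1 and 90.0 CPM in control replicates 1 to 4 and at 164, 118, 137 and 147 CPM in knockout replicates 1 to 4. Control replicate 2 reached into the knockout range and the other 3 controls lay below it. The log2 fold change was 0.37 ± 0.18 (edgeR adjusted p = 0.290), and 0.55 without control replicate 2 (0.0896). Mthfd1l (ENSMUSG00000040675.17; chromosome 10 from 3973118 to 4167081, plus strand), the gene of the formate-releasing synthetase, gave 68.3, 136, 87.9 and 96.3 CPM in control replicates 1 to 4 and 139, 140, 94.3 and 111 CPM in knockout replicates 1 to 4. The groups overlapped in both directions, since control replicate 2 exceeded 2 of the knockout libraries and knockout replicate 3 lay below 2 of the controls. Its log2 fold change was 0.32 ± 0.20 (edgeR adjusted p = 0.455), between 0.11 and 0.52 over the alternatives.

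Of the cytosolic enzyme genes, Shmt1 fell and Mthfd1 did not pass. Shmt1 (ENSMUSG00000020534.14) lies on chromosome 11 from 60788104 to 60811718, minus strand, with 15 merged exon blocks. It gave 83.0, 92.8, 76.7 and 61.3 CPM in control replicates 1 to 4 and 55.0, 39.8, 49.6 and 49.8 CPM in knockout replicates 1 to 4. All knockout libraries lay below all control libraries, with control replicate 4 and knockout replicate 1 nearest to each other. The means were 78.5 ± 13.2 and 48.6 ± 6.35 CPM, and the log2 fold change was -0.69 ± 0.17 (edgeR adjusted p = 0.0276). The call was lost without control replicate 2 (adjusted p = 0.0978) or 3 (0.0720) or knockout replicate 1 (0.0514), 2 (0.135), 3 (0.0848) or 4 (0.0655), and with a replicate block (0.0509), with fitted values from -0.80 to -0.60. Genes of DNA replication also differed between the groups. They were read from a list of 21 S phase genes without folate enzymes, chosen with earlier results of these data known. Of these, 8 were lower and none was higher, against 3.19% and 2.54% of all genes tested. At an unadjusted edgeR p under 0.05, 12 of the 21 were lower and 0 higher, and DESeq2 and limma-voom called 9 and 10 lower and 0 higher. Such unadjusted p-values were common over all genes: Shmt2, at 0.0552, was place 1884 of 9904 when ordered by edgeR p. Over all 9904 genes DESeq2 and limma-voom called 486 and 583 lower, and 369 and 471 higher. The median edgeR log2 fold change of the 21 S phase genes was -0.51. Their summed level was 2311 to 2826 CPM across the control libraries and 1536 to 1711 CPM across the knockout libraries. Their part in the fall of Shmt1 was not tested. On the opposite strand Shmt1 shares 184 bases of its last exon block with Smcr8, which had 43 to 92 counts per library and an edgeR adjusted p of 0.947.

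Mthfd1 (ENSMUSG00000021048.7), the cytosolic trifunctional enzyme gene, lies on chromosome 12 from 76255298 to 76319803, plus strand. It gave only 44, 65, 53 and 69 counts in control replicates 1 to 4 and 55, 61, 53 and 94 in knockout replicates 1 to 4. In CPM these were 6.18, 10.5, 7.38 and 6.72 against 7.38, 8.77, 6.95 and 11.3, and the groups overlapped. The log2 fold change was 0.17 ± 0.30 (edgeR adjusted p = 0.835), and it was -0.045 without control replicates 1 and 4.

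**Figure D2:**
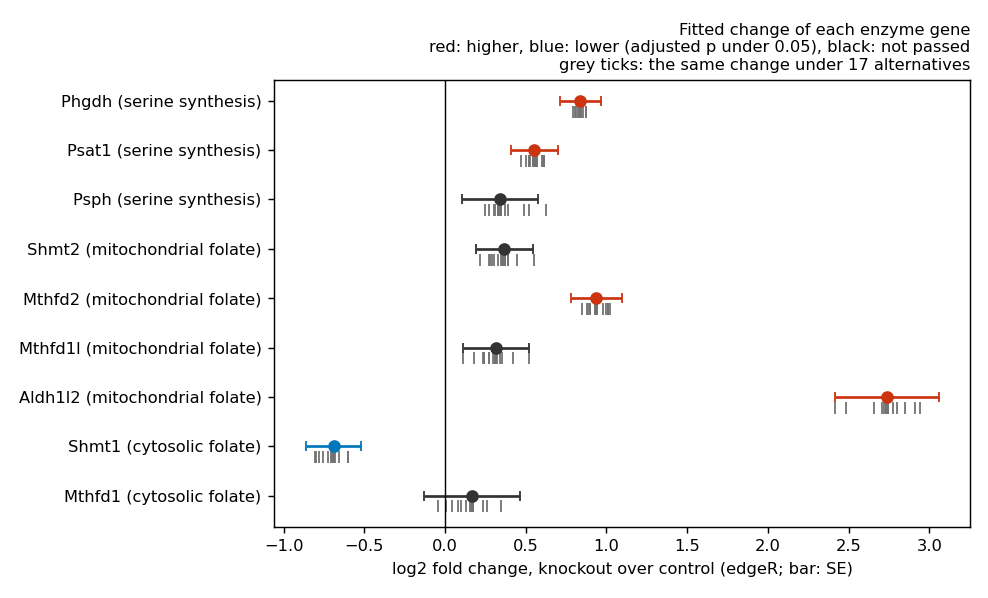
Log2 fold change of each enzyme gene, knockout over control, from edgeR, with its SE as a bar. Red points passed as higher, blue as lower and black did not pass, and grey ticks give the same change under 17 alternatives. Aldh1l2 lies at 2.74, far to the right of the other members, and Shmt1 is the only member whose ticks all lie below 0.

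Mitochondrial and cytosolic enzymes were set against each other as ratios of counts within a library, which do not depend on scaling between libraries. The ratio of Shmt2 to Shmt1 was 1.27, 1.61, 1.23 and 1.47 in control replicates 1 to 4 and 2.98, 2.97, 2.75 and 2.95 in knockout replicates 1 to 4. Every knockout library had a higher ratio than every control library, and the 4 knockout ratios were nearly the same. On the log2 scale the ratio was 0.47 ± 0.19 in the control and 1.54 ± 0.055 in the knockout (SD, n = 4 each), a difference of 1.07. The exact two-sided permutation p was 0.0286, the smallest that 4 against 4 libraries allow, and 0.0857 after adjustment over the 3 pairs. This misses the threshold, but 1 pair alone could not have passed. Even the smallest p becomes 0.0857 unless a second pair reaches it too.

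Both ratios to Mthfd1 overlapped between the groups. The ratio of Mthfd2 to Mthfd1 was 33.4, 19.4, 19.8 and 24.2 in control replicates 1 to 4 and 50.0, 43.4, 49.6 and 24.6 in knockout replicates 1 to 4, so knockout replicate 4 lay in the control range. Its log2 difference was 0.78 (exact permutation p = 0.0571, adjusted p = 0.0857). The ratio of Mthfd1l to Mthfd1 was 10.9 to 14.2 in the control and 9.73 to 18.7 in the knockout, a log2 difference of 0.18 (exact permutation p = 0.457, adjusted p = 0.457). These pairs share Mthfd1, whose low counts enter both.

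**Figure D3:**
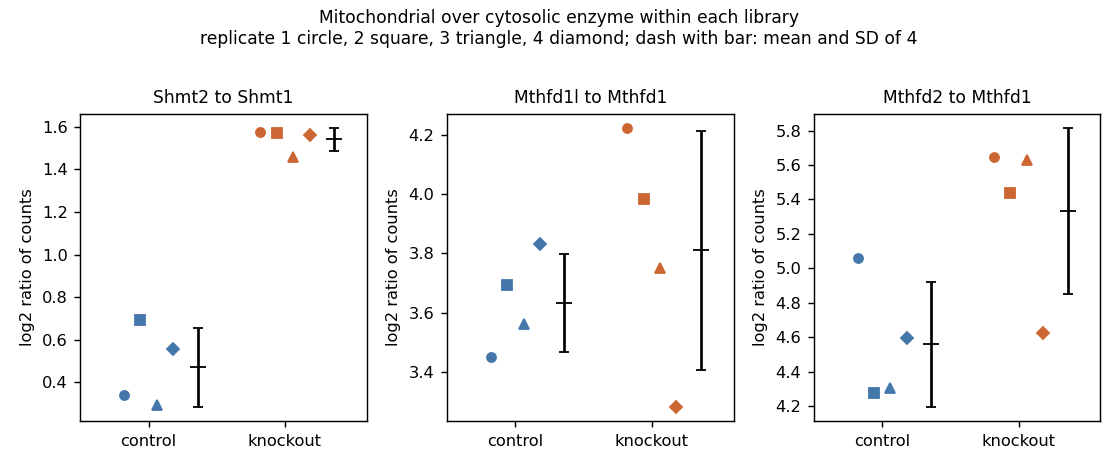
Log2 ratio of counts, mitochondrial over cytosolic enzyme, in each library, with mean and SD of the 4 libraries of a group as a dash with bar; each panel has its own axis. The Shmt2 to Shmt1 ratios separate the groups, from 0.29 to 0.69 in the control and from 1.46 to 1.58 in the knockout, and the other 2 pairs overlap.

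As a description with no test, the mean log2 CPM of the 4 mitochondrial genes minus that of the 2 cytosolic genes was 1.49, 1.43, 1.24 and 1.17 in control replicates 1 to 4 and 2.86, 2.93, 2.75 and 2.36 in knockout replicates 1 to 4. The mean of the mitochondrial genes went from 5.96 ± 0.37 to 7.08 ± 0.14 and that of the cytosolic genes from 4.62 ± 0.26 to 4.36 ± 0.16 (SD, n = 4 each). Aldh1l2, with its log2 fold change of 2.74, contributed most to the first of these. The 9 genes together made up 800.0 to 1003 CPM across control and 1242 to 1512 CPM across knockout libraries.

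Within a group, the libraries that were high or low differed from member to member. Control replicate 2 was above the control mean for every folate member. On the log2 CPM scale it was higher by 0.48, 0.53, 0.64 and 0.46 for Shmt2, Mthfd1l, Aldh1l2 and Mthfd1. For Mthfd2 and Shmt1 the excess was 0.19 and 0.26. Among the serine synthesis genes it lay near or below the mean, at 0.060 for Psat1, -0.038 for Phgdh and -0.18 for Psph. Control replicate 4 was high for Psph by 0.47 and low for Aldh1l2, at -1.31. In the knockout group replicate 4 was low for Mthfd2 and Aldh1l2, at -0.29 and -0.22, and high for Mthfd1 by 0.41. Phgdh was the steadiest member, with an SD of 0.092 (log2 CPM) in the control and 0.083 in the knockout, and Aldh1l2 in the control the most variable, with 0.90.

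**Figure D4:**
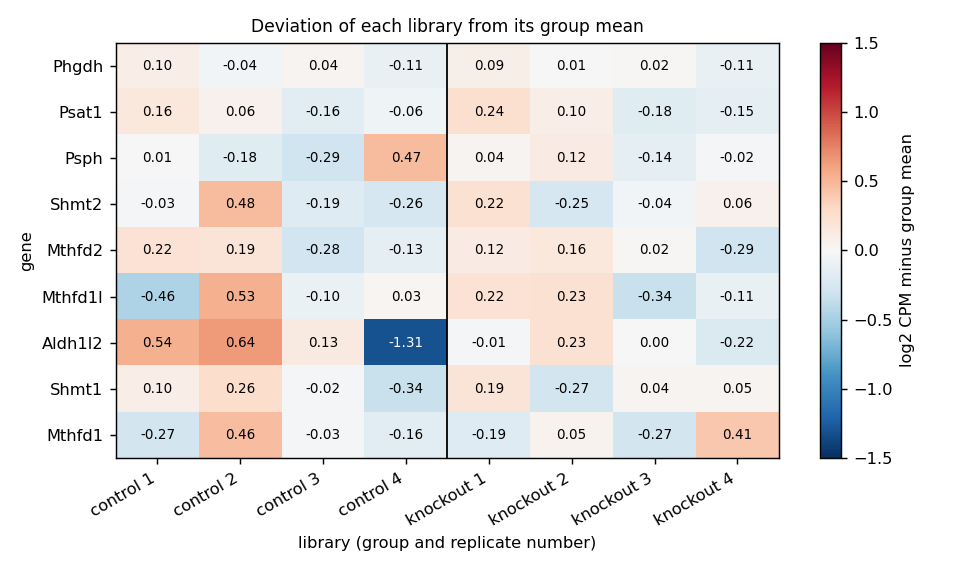
Deviation of each library from its own group mean in log2 CPM, for each member (rows) and library (columns), with red above and blue below the mean. The lowest cell is Aldh1l2 in control replicate 4 at -1.31, and control replicate 2 is high for 4 of the 6 folate genes by 0.46 or more.

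Among genes around these enzymes, the share called higher was near that of all genes. A list of 51 neighbouring genes covered other folate enzymes, folate transport, glycine cleavage, serine transport and use, the methionine cycle with transsulfuration, and purine synthesis. Of these, 37 were tested, 1 (2.70%) was higher and none was lower, against 2.54% and 3.19% of all genes tested, with a median log2 fold change of -0.071. At an unadjusted edgeR p under 0.05, 3 were higher and 2 lower, and DESeq2 and limma-voom each called 2 higher and 0 lower. Shmt2, with an unadjusted edgeR p of 0.0552, was place 1884 when all 9904 genes were ordered by p, so such p-values were common. Over all 9904 genes DESeq2 called 369 higher and 486 lower, and limma-voom 471 and 583. The neighbour called by edgeR was Cth, which encodes the cystathionine-cleaving enzyme that makes cysteine with carbon from serine. Its level was 4.64, 24.2, 11.8 and 21.3 CPM in control replicates 1 to 4 and 102, 78.5, 69.0 and 83.2 CPM in knockout replicates 1 to 4. The groups were far apart, and the fitted log2 difference was 2.42 ± 0.36 (SE, edgeR adjusted p = 0.00113). Cbs, the other transsulfuration gene of the list, had 0 counts in every library. DESeq2 and limma-voom also called the serine transporter gene Slc1a4, as did edgeR when control replicate 1, or both 1 and 4, were left out.

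None of the 5 other folate enzymes tested passed. Tyms, the thymidylate synthase gene, had the smallest p, at -0.67 ± 0.32 (log2 fold change ± SE, edgeR adjusted p = 0.278), on levels of 14.1 ± 4.35 CPM (control) and 8.84 ± 3.45 CPM (knockout, SD, n = 4 each). Mthfd2l, the paralogue of Mthfd2, had 31 counts in all 8 libraries and was not tested, and Aldh1l1, the cytosolic counterpart of Aldh1l2, had 0 counts in every library. A cytosolic partner for Aldh1l2 could therefore not be compared. Of the glycine cleavage list only Dld and Gcsh were tested, and Gldc and Amt, which define that system, had 0 counts throughout. Dld, shared with other dehydrogenase complexes, was at 0.43 ± 0.22 (log2 fold change ± SE, edgeR adjusted p = 0.317).

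In folate transport and retention 4 of 7 genes were tested and none passed; Fpgs, which adds glutamates to folate, had the smallest p, at 0.32 ± 0.28 (log2 fold change ± SE, edgeR adjusted p = 0.616). Slc1a4, a neutral amino acid transporter gene that carries serine, gave 17.1, 13.7, 10.4 and 11.2 CPM in control replicates 1 to 4 and 18.4, 25.7, 23.3 and 23.1 CPM in knockout replicates 1 to 4. Its groups did not overlap, yet its log2 fold change of 0.79 ± 0.23 narrowly missed the threshold in edgeR (adjusted p = 0.0550), and it passed with DESeq2 (0.0205) and limma-voom (0.0109). Of the 37 neighbours tested, 3 (Cth, Slc1a4 and Srr) had every knockout library above every control library, against 6.45% of all genes tested. In 1, Ppat, every knockout library lay below, against 6.64% of all genes tested. Of 10 genes of purine synthesis, a route that takes up formyl units from folate, none passed and the median was 0.048. Ppat, the first enzyme gene of that route, had the smallest p there, at -0.52 ± 0.21 (log2 fold change ± SE, edgeR adjusted p = 0.194).

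**Figure D5:**
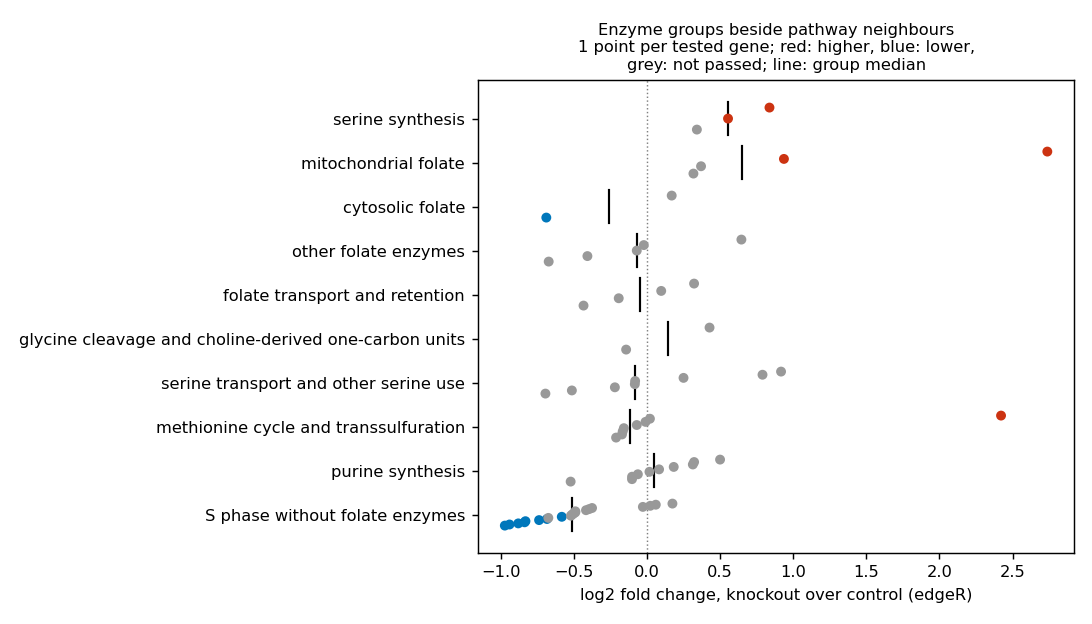
Log2 fold change of every tested gene in the 3 enzyme groups, the 6 neighbour lists and the S phase list, 1 point per gene, with the median of each group as a line. Red points passed as higher and blue as lower. Outside the enzyme groups the only red point is Cth at 2.42, and the blue points outside them are 8 S phase genes.

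Genes with the most similar pattern over the 8 libraries were found by the root mean square difference of centred log2 CPM, leaving out members and predicted gene models. Nearest to the mean of the mitochondrial folate enzymes were Ncf1, Eid1, Bbc3, Gorasp1 and Slc7a1, at 0.104, 0.127, 0.130, 0.143 and 0.148. The 4 enzymes themselves lay at 0.20 (Mthfd2), 0.404 (Shmt2), 0.476 (Mthfd1l) and 0.940 (Aldh1l2) from their own mean. Nearest to the mean of serine synthesis were Aar2, Thyn1, Atp5g1, Dusp11 and Med8, at 0.0814, 0.0842, 0.0863, 0.0867 and 0.104, where Psat1 lay at 0.0941, Phgdh at 0.167 and Psph at 0.192.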

How the data were processed

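RNA of 8 sorted plasmablast samples, 4 knockout and 4 control, was made into QuantSeq 3′ tag libraries from 500 ng of total RNA, per the labels' protocols. The authors deposited whole-number read counts per gene symbol, 1 file per library, not normalized. The submitters' processing notes name mm10, TopHat2 2.1.1, BWA 0.7.12, HTSeq 0.6.1 and SAMtools 1.3.1, without roles; annotation, strand setting and use of multi-mapped reads are not stated in the labels. The kit reads transcript ends, so no length correction was made, and counts may include PCR copies. Replicate libraries all differed beyond sampling noise (chi-square per degree of freedom 6.60 to 94.2).

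Genes were filtered with filterByExpr (minimum count 10, minimum total 15) and scaled by TMM. edgeR 4.0.16 (R 4.3.3) fitted all 9904 genes with group as the only term (robust quasi-likelihood F-test, two-sided). SE is the fitted log2 fold change over the square root of F; log2 CPM used a prior count of 2 and ratios a pseudocount of 0.5. The steps were tested on simulated counts. Alternatives were DESeq2 1.42.0, limma-voom (limma 3.58.1), other scalings and filters, a replicate block, and leaving out libraries; leaving out control replicates 1 and 4 together was added after seeing the data. Members and lists were chosen with earlier results of these data known. Named genes are the 9 members, Jagn1, called neighbours and the neighbour with the smallest p in each list without a call. The 5 nearest patterns of 2 groups were also named. Genes chosen after their values were seen were D10Wsu102e, Smcr8, Mzb1, Sdc1, Jchain, Tnfrsf17, Gcsh, Gldc, Amt, Mthfd2l, Aldh1l1, Sfxn2, Lig1, Srr and Cbs.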

Additional observations from a re-analysis of the deposited data

Results flagged for a closer look

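Among 46 groups of 4 values examined (members, Jagn1, named neighbours, ratios and means), 2 held a library whose gap to its nearest neighbour took up most of the group's range (Dixon's test at the 95% level); chance gives this in about 1 group in 20. The Shmt2 to Shmt1 log2 ratio of knockout replicate 3 was 1.46, against 1.56 to 1.58 in the other 3 knockout libraries and at most 0.69 in the control. Jagn1 in knockout replicate 1 was 0.269 CPM, against 0.120 to 0.144 CPM in the other 3, which is 2 counts against 1.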

How the results depend on the processing

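Phgdh, Mthfd2, Aldh1l2 and Cth kept direction and call under all 17 alternatives, and every member but Mthfd1 kept its direction. Mthfd1 turned to -0.045 without control replicates 1 and 4. The count of members called higher was 3 to 4 and that of members called lower 0 to 1 when single libraries were left out. The replicate numbers were not shown to pair the samples: deviations of same-numbered libraries correlated at 0.044, -0.0034, 0.042 and 0.066. With a replicate block 0 members were lower, since Shmt1 had an adjusted p of 0.0509, and 4 were higher. Neighbours called higher numbered 2 with DESeq2, 2 with limma-voom and 2 without control replicates 1 and 4, and 1 to 2 when single libraries were left out; Slc1a4 was the added gene. Neighbours called lower numbered 0 to 1, the 1 being Sfxn2 without control replicate 4 (-0.81, edgeR adjusted p = 0.0370). The difference between compartment means, 1.39, stayed between 1.32 and 1.51 when single libraries were left out. It was not computed without Aldh1l2, whose log2 fold change of 2.74 stands against 0.37, 0.94 and 0.32 for Shmt2, Mthfd2 and Mthfd1l. The cytosolic mean joins Shmt1 at -0.69 with Mthfd1 at 0.17. No ratio passed after adjustment under any alternative, but these tests could hardly pass. The ratio of Shmt2 to Shmt1 had an adjusted permutation p of 0.0857 under each single omission, the lowest that 1 pair alone can reach. With the replicate block or without both control replicates 1 and 4, too few arrangements of the libraries remain for any pair to pass. Over all genes, the number called was 568, and 855 with DESeq2, 1054 with limma-voom, 820 without control replicate 1 and 892 without control replicate 4; it was 270 without knockout replicate 2. Low counts limit Mthfd1, Psph and the control level of Aldh1l2. The SE values come from the edgeR fit, which takes in the spread between libraries.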
